A study of Mus musculus with 21 samples.

Results

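Transcripts of hematopoietic stem cells (HSCs) from mice aged 2 years were compared with those of HSCs from young mice that had been given PBS 3 times, by RNA sequencing. The comparison took the 3 libraries named Old and the 3 named PBS 3 times, which are 6 of the 21 libraries of the study, and was restricted to autosomal genes, 20021 of the 21000 gene symbols in the count table. The study also holds HSCs of mice given PBS once or 5-FU, a cytotoxic drug, once or 3 times. All mice were wild type C57BL/6 with no added allele. The mice of the PBS group were 10 weeks old at the first administration and received PBS intraperitoneally at intervals of 21 days. Between the first and the last administration lay 42 days, and their HSCs were isolated on day 6, 5 days after the last one. They were thus older than 10 weeks when sampled. No administration is given for the old mice, whose HSCs are labelled as fresh and were collected apart from the others. In both groups cells were enriched for c-Kit and HSCs sorted by CD150, Sca-1 and c-Kit on the surface and the absence of CD48 and lineage markers, to which the study's methods add the absence of Flt3 for this strain, and 3000 to 3500 cells went into each library. How many animals stood behind a library of old HSCs is not stated, so the p-values below measure the spread between these libraries.

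HSCs renew themselves and give rise to all blood lineages, and with age their number in the marrow rises while the output per cell falls and shifts from lymphoid towards platelet and myeloid cells. Transcripts known from earlier work to accumulate in aged mouse HSCs encode surface proteins such as P-selectin (Selp), secreted proteins such as clusterin (Clu) and von Willebrand factor (Vwf), and enzymes such as the retinaldehyde dehydrogenase Aldh1a1. Vwf also marks the HSCs that lean towards megakaryocytes, the cells that shed platelets.

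The old libraries held 23507025 to 34857534 counts and the PBS libraries 27023725 to 31724107. The sum of 10 HSC markers was 3955 to 4154 CPM (counts per 1000000 counts of the library, on TMM-scaled library sizes) in Old and 3762 to 4105 CPM in PBS 3 times, with Hoxb5 as the only marker not above 10 CPM. The markers of other cells were low in both groups. B cell markers summed to 41.7 to 57.9 CPM in Old and 42.8 to 52.4 in PBS 3 times, nearly all of it Cd79b, and Ms4a1 was at 0. T and NK cell markers summed to 11.9 to 15.6 against 17.1 to 20.7, with Cd3e, Cd8a and Ncr1 at 0. Monocyte and macrophage markers summed to 63.6 to 98.9 against 55.7 to 66 CPM, neutrophil markers to 15.3 to 26.9 against 23.4 to 42.3, mature megakaryocyte markers to 92.1 to 104 against 79.2 to 93.5, and endothelial and stromal markers to 185 to 247 against 205 to 229. Of these lists no autosomal member passed the test between the groups. Erythroblast markers summed to 27.1 to 85.4 CPM in Old and 13.7 to 16.5 in PBS 3 times, and 1 of their 6 members, Rhag, passed it. The groups also differed in sex. The Y-linked genes Ddx3y, Kdm5d, Eif2s3y and Uty had 0 counts in all 3 old libraries. They had 7.04 to 143 CPM in each of the other 18 libraries. Age, sex, treatment and collection can therefore not be told apart in any difference below. The paper does not state the supplier or substrain of the old mice, so these cannot be told apart from age either.

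Between old and PBS-treated HSCs, 119 of the 12397 autosomal genes tested differed, which is 0.960% (edgeR quasi-likelihood F test, adjusted p under 0.05). In Old 69 of them were higher (0.557% of the genes tested) and 50 were lower (0.403%), and with GC content and transcript length removed from the counts 59 were higher and 65 lower. The median log2 fold change over all genes tested was -0.00, and 49.6% of them were above 0. At an unadjusted p under 0.05, 689 genes were higher (5.56%) and 695 were lower (5.61%). Fewer genes passed with any 1 library left out, and how many depended on which one. With 1 library left out at a time, 22, 16 and 31 genes passed without old replicate 1, 2 and 3, and 70, 50 and 55 without PBS replicate 1, 2 and 3. Of the 119, 11 passed in all 6 such fits, namely Plscr2, Gpx3, Myl10, Myh14, Slc17a8, Gem, Gbp4, Wdfy1, Phactr1, Axin1 and Reps1. Of these, Plscr2, Myl10, Gem, Gbp4 and Wdfy1 passed under each of the 17 alternatives tried. No called gene changed direction under any of them. In each called gene the groups did not overlap, so alternatives on the same 6 libraries could hardly change it. Myh14 had 0 counts in all 3 PBS libraries and passed the filter on counts through the old libraries alone. Against PBS once it did not pass, as given below. Phactr1 and Gem code for an actin and phosphatase 1 regulator and a small GTPase, and Wdfy1 for an adaptor of Toll-like receptor signalling.

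**Figure D1:**
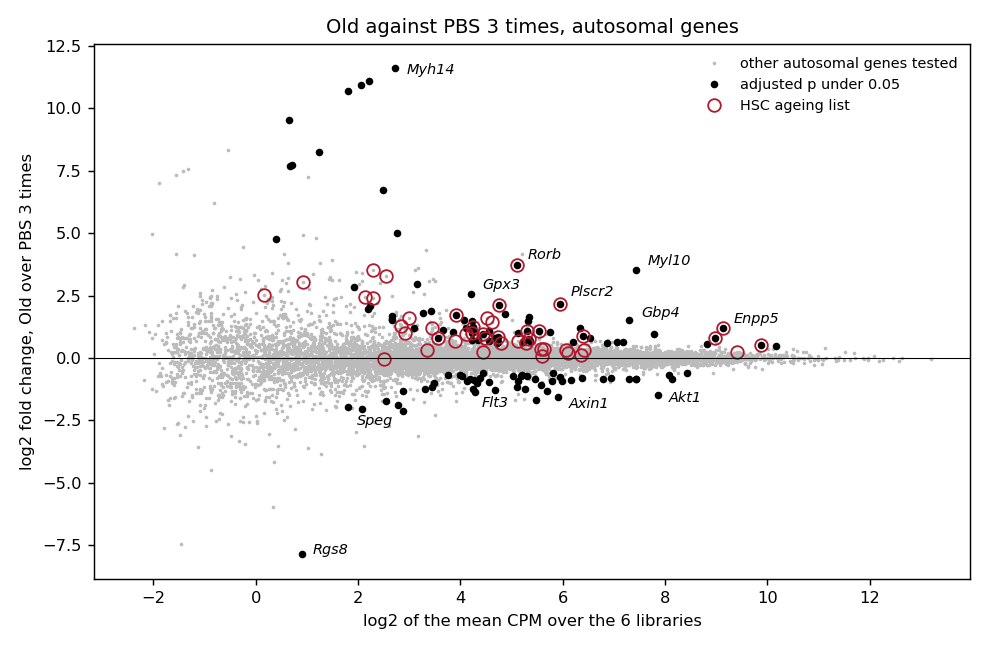
Each point is an autosomal gene, with the log2 of its mean CPM over the 6 libraries on the horizontal axis and its log2 fold change, Old over PBS 3 times, on the vertical axis. Black points are the 119 genes past the threshold and red rings the 45 genes of the HSC ageing list, of which 44 lie above 0.

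The genes known for HSC ageing had the largest median of the 33 gene lists examined. All 45 members of that list were tested, 15 of them rose (33.3%, where 0.557% of all genes tested rose) and 0 fell, and 44 had a positive log2 fold change, with a median of 0.95 where that of all genes was -0.00. At an unadjusted p under 0.05, 37 members were higher and 0 were lower, and DESeq2 called 32 higher. Without old replicate 1, 2 and 3 in turn 4, 2 and 6 members passed, and without PBS replicate 1, 2 and 3, 10, 7 and 7. The list was written from general knowledge of aged mouse HSCs, with other results of these data known. In bulk RNA, more cells that carry a transcript and more RNA per cell cannot be told apart, nor can fewer and less.

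Plscr2, which encodes a phospholipid scramblase of the plasma membrane, had the smallest p-value of all autosomal genes. It had 2942, 3027 and 2944 normalized counts (counts divided by TMM size factors with a mean of 1) in the 3 old libraries, and 620, 739 and 602 in the 3 PBS libraries. The old libraries lay within a narrow range, 4.55-fold above the mean of the PBS libraries, with a log2 fold change of 2.18 ± 0.110 (SE, edgeR adjusted p = 0.000259). Without 1 library at a time the log2 fold change was 2.14 to 2.28, and the highest adjusted p from edgeR was 0.00508. Plscr2 lies on chromosome 9 from 92275602 to 92297752 (GRCm38, the assembly of mm10).

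Of the other 14 risen members, 3 were abundant. Enpp5, a membrane-bound member of the ectonucleotide pyrophosphatase family, rose from 10753, 8369 and 11234 normalized counts to 21505, 25158 and 22420, a log2 fold change of 1.19 ± 0.121 (SE, edgeR adjusted p = 0.00741). Aldh1a1, which makes retinoic acid from retinaldehyde, rose from 9148, 12426 and 10751 to 20369, 18086 and 18274 normalized counts (0.81 ± 0.115 on the log2 scale, SE, edgeR adjusted p = 0.0227). Oxr1, an oxidation resistance protein, rose from 22500 ± 1843 to 32679 ± 2286 normalized counts (SD, n = 3 each), 0.54 on the log2 scale. In all 3 genes each old library lay above each PBS library, as in 7.91% of the genes tested. The reverse, each old library below each PBS library, held for 9.05%, so that the groups did not overlap in 17.0%.

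Other members started from low levels. Rorb, a nuclear receptor of the ROR family, had 1659, 2519 and 1517 normalized counts in Old and 244, 141 and 39 in PBS 3 times, a log2 fold change of 3.74 ± 0.529 (SE, edgeR adjusted p = 0.0226). Its PBS libraries spread widely, and it passed in 2 of the 6 fits without 1 library, with an adjusted p from edgeR of 0.115 without old replicate 2. Neo1, the netrin and RGM receptor neogenin, had 1490, 1625 and 803 in Old and 285, 322 and 282 in PBS 3 times, so that 1 old library lay well below the other 2. Cyp26b1, which degrades retinoic acid, rose from 177, 211 and 230 to 768, 707 and 568 normalized counts (1.73 ± 0.162 on the log2 scale, SE, edgeR adjusted p = 0.00572). Aldh1a1 and Cyp26b1, an enzyme that makes retinoic acid and an enzyme that removes it, were thus both higher in Old. Runx1t1, a transcriptional corepressor also called ETO, rose from 736 ± 82.5 to 1584 ± 123 normalized counts (SD, n = 3 each, 1.10 on the log2 scale, edgeR adjusted p = 0.00872).

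The members that meet the platelet programme rose by smaller factors. Vwf, the carrier of factor VIII and a bridge between platelets and collagen, had 3588, 3082 and 3055 normalized counts in Old and 1798, 1683 and 1741 in PBS 3 times (0.90 ± 0.0986 on the log2 scale, SE, edgeR adjusted p = 0.0103). Selp, an adhesion molecule for leukocytes on platelets and endothelium, had 2252, 1565 and 1772 against 702, 938 and 1000 (1.08 ± 0.179, SE, edgeR adjusted p = 0.0411). Cavin2, a coat protein of caveolae that is abundant in platelets, had 1505 ± 145 against 890 ± 35.1 (SD, n = 3 each, 0.76 on the log2 scale). Each of these genes lay higher in all 3 old libraries than in any PBS library. Selp and Cavin2 passed in none of the fits without 1 library, where their highest adjusted p-values from edgeR were 0.108 and 0.0871, and Vwf passed in 5 of 6, with 0.0579 in the other.

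Clu, a secreted chaperone, rose from 359, 419 and 535 to 954, 802 and 779 normalized counts (0.95 ± 0.164 on the log2 scale, SE, edgeR adjusted p = 0.0485). Nupr1, a stress-induced chromatin protein, rose from 257 ± 5.1 to 444 ± 55.4 (SD, n = 3 each, edgeR adjusted p = 0.0491), and Matn4, a matrix protein of the matrilin family, from 365 ± 50.1 to 736 ± 151 (edgeR adjusted p = 0.0465). These 3 genes passed narrowly, in 1, 0 and 0 of the 6 fits without 1 library. Sult1a1, a phenol sulfotransferase encoded close to Nupr1 on chromosome 7, rose from 556 ± 56.1 to 1007 ± 136 normalized counts (SD, n = 3 each, edgeR adjusted p = 0.0301).

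**Figure D2:**
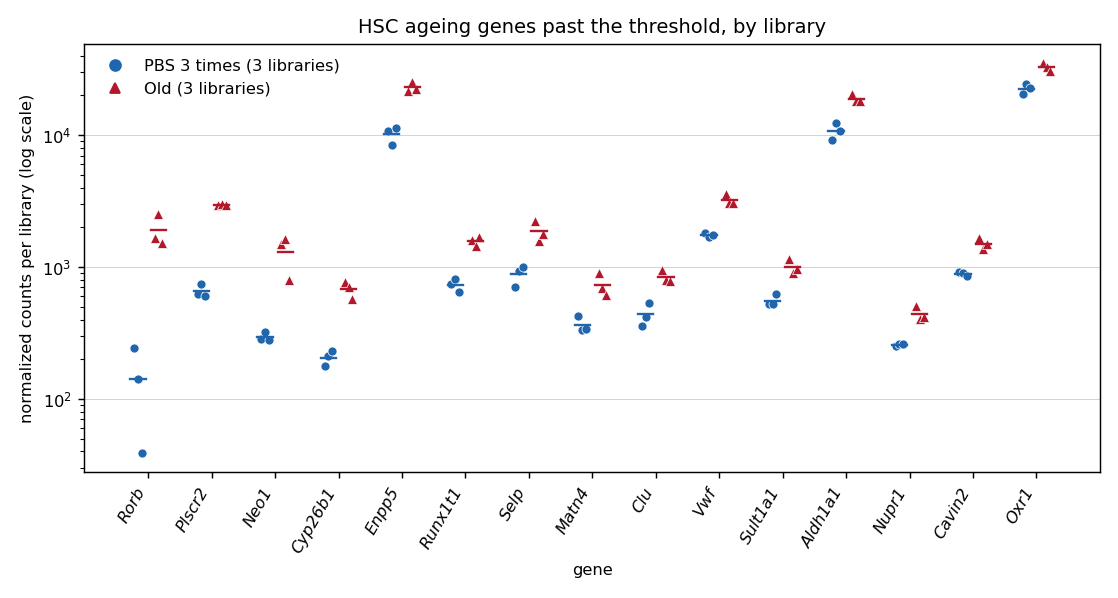
Normalized counts of the 15 HSC ageing genes past the threshold, on a log scale, with the 3 libraries of PBS 3 times as circles, the 3 old libraries as triangles and their means as bars. The genes are ordered by log2 fold change, from Rorb at 3.74 to Oxr1 at 0.54, and in each of them the lowest old library lies above the highest PBS library.

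The other 30 members did not pass the test. Sbspon, a secreted matrix protein with an antisense gene over 72.8% of its exonic bases, had 289, 262 and 242 normalized counts in Old and 46.5, 5.54 and 16.9 in PBS 3 times (edgeR adjusted p = 0.0613). Mt1 and Mt2 encode metallothioneins, which bind zinc and copper. Mt1 had 342, 271 and 281 in Old and 131, 134 and 176 in PBS 3 times (log2 fold change 1.02 ± 0.199, SE, edgeR adjusted p = 0.0749), and the groups did not overlap. Mt2, with an antisense gene over 73.5% of its exonic bases, had 99.9 ± 15.2 against 12 ± 8.4 (SD, n = 3 each, edgeR adjusted p = 0.124). Cd38, an ectoenzyme that consumes NAD, had 541 ± 40.6 against 336 ± 74.6 (edgeR adjusted p = 0.148). Itgb3, integrin beta 3 of platelets and HSCs, had 2109, 1633 and 1170 against 1300, 1258 and 1304, so that 1 old library lay below all PBS libraries (log2 fold change 0.35 ± 0.193, SE, edgeR adjusted p = 0.595). Slamf1, which encodes the gate marker CD150, had 1549, 1825 and 1348 against 1419, 1181 and 1115 (edgeR adjusted p = 0.423). Tc2n, a C2 domain protein, was the only member with a negative value, at -0.05 ± 0.418 (log2 fold change ± SE).

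Promoter windows were read for the 33 ageing genes that the RefSeq table (GRCm38.p6) holds, from 250 bases before to 50 after an annotated start. Motifs were searched on both strands after the values had been seen, that of AP-1, the dimers of FOS and JUN proteins, as TGANTCA, that of GATA factors as AGATAA, and that of the interferon response element. At least 1 window held the AP-1 motif in 7 of the 33 (21.2%) and in 6 of the 49 risen genes with a window (12.2%), where 8.97% of all 27025 genes with a window did, and 7.81% of the 32851 single windows. Of the 40 fallen genes with a window, 4 (10%) held it, a share near that of the risen genes. The GATA motif was found in 3 of the 33 (9.09%, all genes 12.7%, single windows 11.2%) and the interferon response element in 1 of 33 (3.03%, all genes 3.99%, single windows 3.44%). The windows of Selp, Aldh1a1, Rorb and Creb5 are shown with the AP-1 motif in capitals because these risen genes hold it and are described here, Creb5 being a risen gene for a transcription factor of the CREB and ATF family that is described further on.

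Selp, chr1:164115014-164115313, plus strand: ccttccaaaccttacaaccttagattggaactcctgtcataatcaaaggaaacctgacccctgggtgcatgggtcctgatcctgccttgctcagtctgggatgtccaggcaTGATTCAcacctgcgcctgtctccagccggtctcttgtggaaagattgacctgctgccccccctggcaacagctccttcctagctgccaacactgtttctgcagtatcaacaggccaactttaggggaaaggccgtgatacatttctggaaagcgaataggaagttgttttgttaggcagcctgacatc
Aldh1a1, upstream start, chr19:20492333-20492632, plus strand: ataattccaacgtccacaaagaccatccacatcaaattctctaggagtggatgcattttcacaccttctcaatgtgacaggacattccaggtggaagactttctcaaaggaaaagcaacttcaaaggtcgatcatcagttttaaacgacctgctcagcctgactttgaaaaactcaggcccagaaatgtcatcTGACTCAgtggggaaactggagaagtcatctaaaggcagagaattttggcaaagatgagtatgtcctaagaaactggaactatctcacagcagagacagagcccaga
Rorb, downstream start, chr19:19001068-19001367, minus strand: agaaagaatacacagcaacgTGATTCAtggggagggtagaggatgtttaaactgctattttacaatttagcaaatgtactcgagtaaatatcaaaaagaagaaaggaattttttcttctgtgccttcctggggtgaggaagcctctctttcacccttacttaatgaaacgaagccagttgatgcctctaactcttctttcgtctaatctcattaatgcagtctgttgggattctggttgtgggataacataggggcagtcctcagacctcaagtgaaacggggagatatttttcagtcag
Creb5, downstream start, chr6:53573124-53573423, plus strand: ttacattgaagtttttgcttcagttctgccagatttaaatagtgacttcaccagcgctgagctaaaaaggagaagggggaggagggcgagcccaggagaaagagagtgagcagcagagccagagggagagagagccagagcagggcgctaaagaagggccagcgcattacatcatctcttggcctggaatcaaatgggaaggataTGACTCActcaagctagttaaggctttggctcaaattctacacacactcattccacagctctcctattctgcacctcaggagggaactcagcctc

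Counted from the annotated start, the AP-1 motif began at -139 in Selp, -57 in Aldh1a1, -230 in Rorb and -45 in Creb5. Aldh1a1, Rorb and Creb5 each have a further window in the table that holds no such match. A match describes letters only. The immediate early genes, which include the FOS and JUN family, had 23 members tested, of which 0 rose and 0 fell, with a median log2 fold change of -0.08.

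Outside the ageing list, the most abundant of the 10 largest rises was Myl10, a regulatory light chain of myosin, on chromosome 5 from 136693146 to 136701094. Its normalized counts were 7274, 7520 and 13309 in Old and 780, 909 and 785 in PBS 3 times, 11.4-fold apart, with a log2 fold change of 3.51 ± 0.251 (SE, edgeR adjusted p = 0.00191). One old library was far above the other 2, and without it (old replicate 3) the log2 fold change was 3.18. Gpx3, a secreted selenium-dependent glutathione peroxidase, had 1070, 787 and 946 in Old and 175, 162 and 137 in PBS 3 times, a log2 fold change of 2.56 ± 0.158 (SE, edgeR adjusted p = 0.00092). Slc17a8, the vesicular glutamate transporter VGLUT3, had 396, 457 and 536 against 70.3, 42.5 and 64.3 (2.97 ± 0.238, SE, edgeR adjusted p = 0.00333). Gem had 466, 475 and 388 against 130, 123 and 132 (1.79 ± 0.151, SE, edgeR adjusted p = 0.00343), and Phactr1 3653, 3082 and 3151 against 1446, 1392 and 1486 (1.19 ± 0.1, SE, edgeR adjusted p = 0.00343). In none of these 5 genes did the groups overlap.

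Several transcripts of Old were at or near 0 in the PBS libraries. Those with 0 counts there passed the filter on counts through the old libraries alone. Myh14, a non-muscle myosin heavy chain, had 352, 341 and 477 normalized counts in Old and 0 counts in all 3 PBS libraries, which is at least 133-fold higher against a floor of 3 counts per library (edgeR adjusted p = 0.00188). It was not at 0 in PBS once, with 5.56, 5.33 and 0 CPM beside 12, 11.5 and 16.2 in Old, and against that control it did not pass (edgeR adjusted p = 0.423). Fyb2, an adaptor of the T cell receptor pathway, had 233, 148 and 443 against 0, at least 93.9-fold higher. Gabra4, a subunit of the GABA-A receptor, had 91.5, 366 and 282 against 0, at least 84.3-fold higher. It was not particular to Old, with 8.74, 0 and 4.71 CPM in 5-FU once at day 6 beside 3.13, 12.4 and 9.58 CPM in Old. Greb1, a coactivator known for its induction by oestrogen, had 171, 348 and 101 against 0, at least 70.6-fold higher (edgeR adjusted p = 0.0182). The old libraries of Gabra4 and Greb1 spread widely. Both genes passed in 4 of the 6 fits without 1 library, and their adjusted p-values from edgeR were 0.107 and 0.0995 without old replicate 2. Mab21l2, a developmental gene within Lrba, had 955 counts over the old libraries and 9 over the PBS libraries, a ratio of 112 (exact 95% interval 58.9 to 246, counting error only), but all 9 counts came from 1 library, and 36% of its exonic bases overlap Lrba on the other strand. Creb5 had 457, 204 and 505 normalized counts in Old and 23.7, 0.923 and 11.6 in PBS 3 times (edgeR adjusted p = 0.0298). Cited4, a CBP and p300 interacting transactivator, had 234, 206 and 151 against 20.9, 20.3 and 41.1 (2.84 ± 0.399 on the log2 scale, SE, edgeR adjusted p = 0.0226).

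Pgr, the progesterone receptor and like Greb1 a known target of the oestrogen receptor, was named after its values were seen. It had 237, 251 and 340 normalized counts in Old and 75, 95.1 and 120 in PBS 3 times (1.51 ± 0.258 on the log2 scale, SE, edgeR adjusted p = 0.0465). Esr1, the oestrogen receptor alpha, had 2160, 3194 and 2530 against 2260, 3219 and 3314 (-0.16 ± 0.188, SE, edgeR adjusted p = 0.89). Beside these values stands the absence of Y-linked transcripts from the old libraries, and its part in them was not tested.

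Of the 10 genes tested for guanylate-binding proteins, GTPases that interferon gamma induces and that attack vacuoles of intracellular microbes, Gbp4, Gbp6 and Gbp10 rose. Gbp4 had 6201, 6249 and 8140 normalized counts in Old and 2178, 2515 and 2514 in PBS 3 times (1.51 ± 0.130 on the log2 scale, SE, edgeR adjusted p = 0.00347). Gbp10 had 1346 ± 244 against 392 ± 74, and Gbp6 1809 ± 314 against 584 ± 120 (SD, n = 3 each), with adjusted p-values from edgeR of 0.00713 and 0.0111. These 3 genes lie side by side on chromosome 5 between 105115767 and 105293698, and Gbp6 and Gbp10 are near-identical and share 29% and 46.3% of their exonic bases with the predicted gene Gm43302 on the same strand, so that reads may have been split between them. Gbp8 and Gbp9 of the same cluster had log2 fold changes of 0.52 and 0.48 and did not pass. On chromosome 3, Gbp2, Gbp3, Gbp5 and Gbp7 had log2 fold changes of 0.24, 0.23, -0.06 and 0.17 with standard errors of 0.111 to 0.132, and none passed. All of these genes except Gbp4 and Gbp6 were named after their values were seen.

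Of 43 interferon-stimulated genes tested, 1 rose (Gbp6) and 0 fell, 29 were above 0, and the median log2 fold change was 0.12. At an unadjusted p under 0.05, 9 of them were higher and 1 was lower, where 5.56% and 5.61% of all genes tested were. Antigen presentation genes, 24 tested, had 0 calls, a median of 0.11 and 19 members above 0. At an unadjusted p under 0.05, 9 of them were higher, among them H2-K1 (0.25 ± 0.0542, log2 fold change ± SE, edgeR adjusted p = 0.104), and 1 was lower, H2-DMa, which edits peptides on class II molecules (-0.33 ± 0.0783, edgeR adjusted p = 0.133). Phf11d, a PHD finger protein induced by interferon, rose from 103, 156 and 142 to 420, 554 and 517 normalized counts (edgeR adjusted p = 0.00872), and Wdfy1 from 629, 628 and 641 to 1437, 1795 and 2005 (edgeR adjusted p = 0.00476). NF-kB and inflammatory genes had 30 members tested and 0 calls, with a median of -0.08 and 9 members above 0.

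The genes that fell included Flt3 and Cd34, 2 of the 5 markers of early progenitors examined. Cd34 is also on the list of HSC identity genes. Flt3, the receptor that marks multipotent and lymphoid-primed progenitors, fell from 728, 888 and 733 normalized counts in PBS 3 times to 312, 326 and 369 in Old (-1.22 ± 0.127 on the log2 scale, SE, edgeR adjusted p = 0.00799). Cd34, a sialomucin that appears as HSCs turn into progenitors, fell from 11614, 12528 and 12912 to 7311, 8060 and 8894 (-0.61 ± 0.0909, SE, edgeR adjusted p = 0.0282). In both genes the groups did not overlap. Flt3 passed in 4 of the 6 fits without 1 library and Cd34 in 0, with highest adjusted p-values from edgeR of 0.0731 and 0.124. Flt3 was the only 1 of 15 lymphoid priming genes tested to pass. The median of that list was -0.03. Satb1, a chromatin organizer of lymphoid specification, had 875, 1149 and 906 in Old against 2080, 1245 and 2360 (edgeR adjusted p = 0.142), and Cd27, a TNF receptor family member, had 3669, 3842 and 3573 against 5723, 4562 and 5332 (edgeR adjusted p = 0.088). The summed level of the 5 markers of progenitors was 265 to 317 CPM in Old and 420 to 465 CPM in PBS 3 times, nearly all of it Cd34, so that it adds little to the values of Cd34 and Flt3, and Il7r was at 0. Cd48 went the other way in its mean, with 3.89 ± 1.57 CPM in Old and 3.04 ± 0.833 in PBS 3 times (SD, n = 3 each), and did not pass. Whether the share of such cells behind the gate bore on Flt3 and Cd34 was not tested.

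Several of the 10 largest falls were in signalling genes, whose levels varied together between the libraries of PBS once, as given below. Akt1, a kinase downstream of PI3K, fell from 8194, 9737 and 12487 normalized counts to 3510, 3781 and 3676 (-1.47 ± 0.148, log2 fold change ± SE, edgeR adjusted p = 0.00713). Its homologue Akt2 had a log2 fold change of -0.01 ± 0.0762 (SE) and did not pass. Axin1, the scaffold of the complex that degrades beta-catenin, fell from 2232, 2773 and 2973 to 909, 940 and 839 (-1.57 ± 0.128, SE, edgeR adjusted p = 0.00343). Dvl1, a Dishevelled protein that carries Wnt signals from the receptor, fell from 1868, 1584 and 2606 to 639, 703 and 516 (-1.70 ± 0.203, SE, edgeR adjusted p = 0.0139), whereas Dvl2 and Dvl3 had -0.13 ± 0.140 and -0.25 ± 0.124 (SE) and did not pass. Gna12, an alpha subunit of heterotrimeric G proteins, fell from 322 ± 88.9 to 87.7 ± 22.7, and Evl, an actin regulator of the Ena and VASP family, from 266 ± 50.4 to 80.3 ± 12.3 (SD, n = 3 each). Reps1, an adaptor of endocytosis, fell from 1944, 2154 and 2481 to 857, 859 and 896 (-1.33 ± 0.113, SE, edgeR adjusted p = 0.00343). The old libraries of Akt1, Axin1 and Reps1 were close together, and the spread lay in the PBS libraries. Akt1 was the only call among 32 PI3K, FOXO and mTOR genes (median -0.01), Axin1 among 24 Wnt and Notch genes (median -0.03), a list that does not hold the Dvl genes, and Flt3 among 32 cytokine receptor genes (median -0.05). At an unadjusted p under 0.05 these lists had 5, 6 and 5 members lower and 2, 2 and 0 higher.

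The other largest falls were those of Speg, a striated muscle kinase (356 ± 97.7 to 82.5 ± 27.4 normalized counts, SD, n = 3 each), Eid2, an inhibitor of differentiation that binds p300 (201 ± 20.9 to 48.8 ± 9.47), Fam167a (165 ± 22.2 to 42.5 ± 6.18), and Selenon, selenoprotein N of the endoplasmic reticulum (830 ± 228 to 323 ± 60.1). The genes that fell had a median GC content of 52.5% over their exons, where those that rose had 47.7% and all genes tested 49.8%. With GC content and transcript length removed from the counts, all 50 falls and 57 of the 69 rises still passed. With PBS once as the control 18 of the falls and 52 of the rises did, and with all 6 PBS libraries 39 and 55. Against PBS once Evl, Dvl1 and Flt3 passed, and Akt1, Axin1, Reps1 and Cd34 had log2 fold changes of -1.16, -1.45, -1.11 and -0.28 with adjusted p-values from edgeR of 0.0692, 0.0625, 0.134 and 0.271.

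Single members of other lists fell as well, of which Asxl1 followed the order of Akt1 between the libraries of PBS once, as given below. Asxl1, a Polycomb-associated chromatin regulator mutated in clonal hematopoiesis, had 759, 725 and 696 normalized counts in Old and 1098, 1183 and 1279 in PBS 3 times (-0.71 ± 0.0984 on the log2 scale, SE, edgeR adjusted p = 0.0226), and was the only 1 of 38 chromatin regulators tested to pass. Ctss, the protease cathepsin S, fell from 311, 528 and 392 to 172, 164 and 191 (edgeR adjusted p = 0.0487), 1 of 46 lysosome and autophagy genes. Cd82, a tetraspanin of quiescent HSCs, fell from 9015, 10606 and 9851 to 6634, 6112 and 5586 (-0.69 ± 0.0958, SE, edgeR adjusted p = 0.0226), while Neo1 and Selp rose among the 39 adhesion and niche genes. Among 35 antioxidant genes, Gpx3 rose and Mgst1, a microsomal glutathione transferase, fell from 2202, 2212 and 2436 to 1205, 1409 and 1446 (edgeR adjusted p = 0.0226). Il15, a cytokine for NK and T cells that was named after its values were seen, fell from 1352 ± 87.3 to 835 ± 49.2 (SD, n = 3 each, edgeR adjusted p = 0.0226).

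**Figure D3:**
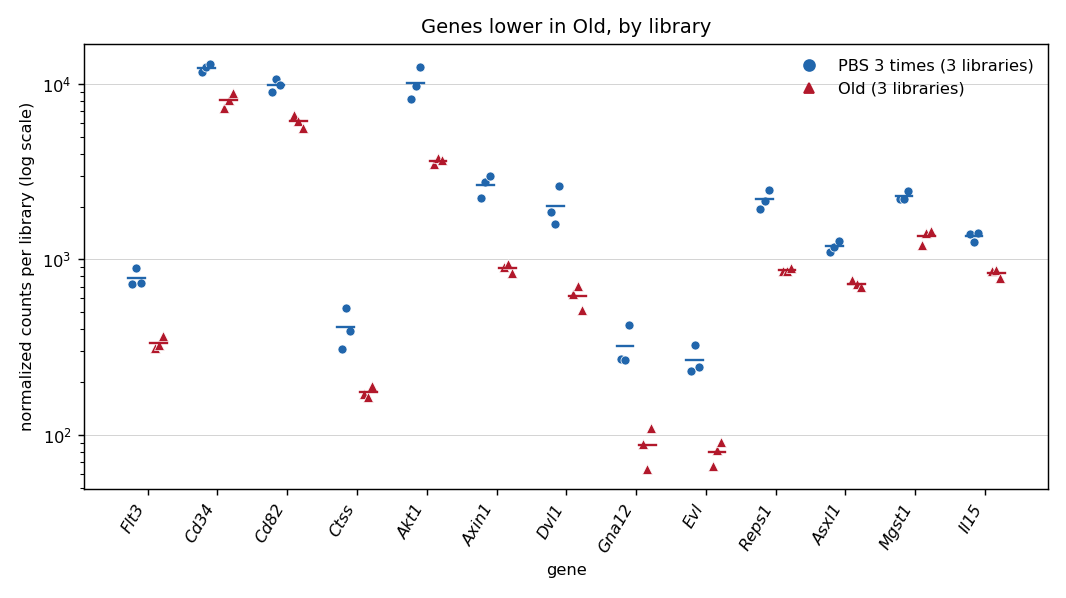
Normalized counts on a log scale of 13 genes lower in Old, with the 3 libraries of PBS 3 times as circles, the 3 old libraries as triangles and their means as bars. In each gene the highest old library lies below the lowest PBS library, and for Akt1 the PBS libraries span 8194 to 12487 while the old ones span 3510 to 3781.

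Of 28 megakaryocyte and platelet genes tested, 3 rose (10.7%, where 0.557% of all genes tested rose), namely Vwf, Selp and Cavin2, all also on the ageing list, and 0 fell, with a median of 0.08. At an unadjusted p under 0.05, 7 of the 28 were higher and 3 lower. Itga2b, integrin alpha IIb, had 2480, 1921 and 1988 against 2077, 2364 and 2309 normalized counts and overlapped (edgeR adjusted p = 0.925). Thbs1, thrombospondin 1 of platelet granules, had 2103, 1148 and 2903 in Old against 0, 247 and 92.7, without passing (edgeR adjusted p = 0.113). Of 17 erythroid genes 1 rose, Rhag, a red cell ammonia channel subunit, from 92.1, 69.3 and 105 to 321, 204 and 335 (1.69 ± 0.275 on the log2 scale, SE, edgeR adjusted p = 0.0383). The erythroid median was 0.35, 14 members were above 0, and 7 were higher and 0 lower at an unadjusted p under 0.05. Globin varied between the old libraries. Hba-a1 had 57.3, 263 and 1151 there and 37, 77.6 and 4.21 in PBS 3 times (edgeR adjusted p = 0.267), which stands beside the erythroblast marker sum given above. Of 18 myeloid genes 0 passed in either direction, with a median of -0.13, and 2 were higher and 4 lower at an unadjusted p under 0.05.

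The HSC identity genes were nearly level. Of 29 tested, 0 rose and 1 fell (Cd34), with a median of 0.02. Kit, the receptor for stem cell factor, had 28757, 32558 and 29129 against 30827, 31045 and 28083 (0.01 ± 0.0726, log2 fold change ± SE, edgeR adjusted p = 0.994), Ly6a, which encodes Sca-1, 12353, 11585 and 12295 against 11138, 12374 and 12444 (0.01 ± 0.0731), and Procr, the protein C receptor EPCR, 861, 781 and 869 against 682, 743 and 878 (0.13 ± 0.119). Mecom, the transcription factor EVI1, had 13970 ± 495 in Old and 11275 ± 176 in PBS 3 times without passing (edgeR adjusted p = 0.088). Cd48, the negative marker of the gate, had 135, 147 and 61.3 against 66.5, 116 and 87.4.

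No list of the cell cycle machinery, metabolism or protein synthesis held more than 1 call, where 0.960% of all genes tested were called. At that share a list of this size may hold none, so 0 calls alone do not mark a list as level. Of 46 S phase and 52 G2 and mitosis genes 0 passed, with medians of 0.03 and 0.05, and Mki67, a marker of cycling cells, had 1649, 2068 and 2063 in Old and 2032, 1257 and 1884 in PBS 3 times (0.16 ± 0.187, log2 fold change ± SE). Glycolysis genes (24), genes of the TCA cycle and fatty acid oxidation (43) and of oxidative phosphorylation (75) had 0 calls and medians of 0.03, 0.01 and 0.01. Pfkfb3, which drives glycolysis through fructose 2,6-bisphosphate, had 6635, 5223 and 7003 against 4483, 4569 and 4855, not overlapping and not past the threshold (0.44 ± 0.118, SE, edgeR adjusted p = 0.178), and the arginine methyltransferase Prmt1 had 3369, 3447 and 3336 against 3614, 3488 and 3331. Cytosolic ribosomal protein genes (79), mitochondrial ribosomal protein genes (78), ribosome biogenesis genes (51) and proteasome genes (46) had 0 calls, and their members had log2 fold changes from -0.25 to 0.38. DNA repair (53), chaperone (42), cholesterol and fatty acid synthesis (31), TGF-beta and BMP (31), imprinted (18) and cyclin and CDK genes (21) had 0 calls as well. Of 28 p53 target genes 1 rose, the kinase gene Plk2, from 252, 367 and 302 to 737, 771 and 635 normalized counts (edgeR adjusted p = 0.02). The 19 lists without a call in edgeR had 785 members tested, counted per list. At an unadjusted p under 0.05, 37 of the 785 were higher and 33 lower, where 5.56% and 5.61% of all genes tested were. DESeq2 called 16 of them higher and 6 lower, 7 and 1 of them antigen presentation genes. Of all 14713 genes that it tested, DESeq2 called 313 higher and 223 lower.

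**Figure D4:**
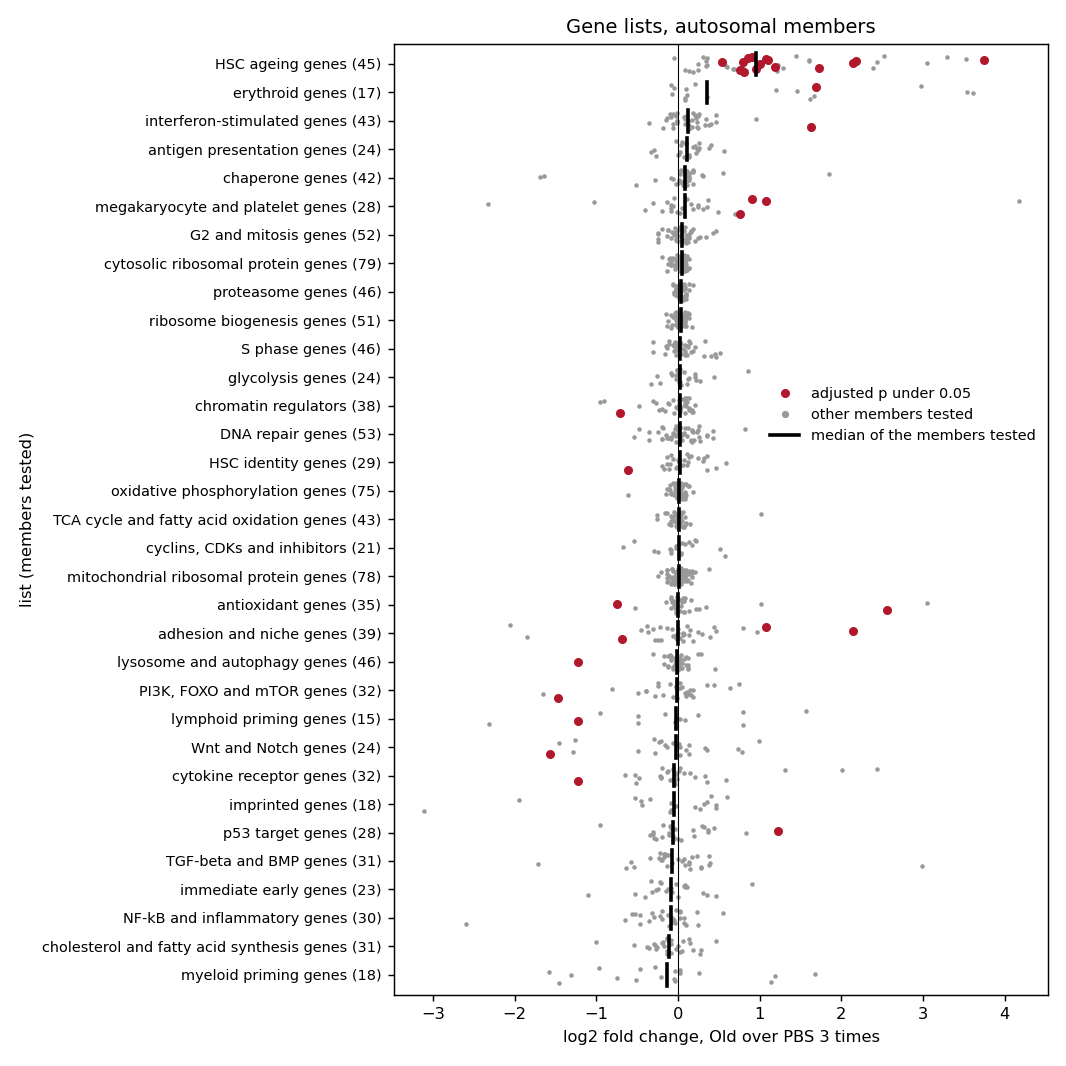
Log2 fold changes, Old over PBS 3 times, of the autosomal members of 33 gene lists, ordered by their median (black bars), with the number tested in parentheses and genes past the threshold in red. The HSC ageing genes have a median of 0.95, the erythroid genes 0.35, and the remaining lists lie between -0.13 and 0.12.

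The levels of the old HSCs were then set beside all other groups of the study in CPM, with no further test. Of the 69 risen genes, 50 (72.5%) were higher in each old library than in all 18 others, and of the 50 fallen genes 26 (52%) were lower than in all 18 others, whereas 1.73% and 0.694% of all genes tested did so. The PBS libraries that made the calls are among the 18. Of the ageing list, 33 of 45 members lay above. Plscr2 had 101, 102 and 100 CPM in Old and at most 24.8 elsewhere, and Myl10 249, 254 and 452 CPM in Old and at most 30.5 elsewhere. Axin1, Akt1 and Reps1 were below all others, Akt1 with 120, 128 and 125 CPM in Old and 174 to 541 elsewhere. Akt1 varied widely among libraries of the same group there, as in PBS once with 174, 270 and 387 CPM. Axin1 (43.9, 91.8 and 114 CPM), Reps1 (33, 77.1 and 81.4) and Dvl1 (37.1, 57.1 and 80.2) climbed there in the same order of libraries. So did Gna12 (5.08, 10.6 and 12.9), Selenon (9.93, 19.3 and 25.7), Eid2 (3.56, 6.01 and 6.85) and Evl (5.97, 7.46 and 8.35). Speg (18.7, 6.57 and 10.9) and Fam167a (3.93, 3.54 and 5.35) did not. Asxl1, which is not among the 10 largest falls, climbed in this order as well (30.6, 35.3 and 43.3), and Flt3 (24.5, 22.6 and 22.4) did not. In 5-FU 3 times at day 21, Akt1 (509, 267 and 194 CPM), Axin1 (124, 80.8 and 55.7) and Reps1 (113, 67.6 and 48) fell together from replicate 1 to 3. The share of all genes with such an order was not counted. The genes that climbed in this order in PBS once varied together. Their falls cannot be counted as separate changes, nor can those among the 26. The part of this spread in their lower level in Old was not tested.

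Other genes of the comparison were not particular to Old. Gem had 15.9, 16.1 and 13.2 CPM in Old, above both PBS groups, but 81.2 ± 1.76 CPM 5 days after 5-FU once and 65.5 ± 8.84 after 5-FU 3 times (SD, n = 3 each). Selp reached 53.4 to 58.7 CPM after 5-FU 3 times at day 6, within the range of Old (52.9 to 76.9). Flt3 was 5.95 ± 2.59 CPM after 5-FU once at day 6, below the 11.4 ± 0.991 of Old. At day 21 Selp was 52.5 to 57.4 CPM after 5-FU 3 times and 40.1 to 46.5 after 5-FU once. In the same order of groups, Gem was 21.5 ± 0.572 and 16.5 ± 1.94 CPM at day 21, and Flt3 22.9 ± 2.95 and 23.8 ± 1.13. For HSCs taken 5 days after 5-FU, the study also accepted cells with lower c-Kit on the surface, and at no other time after 5-FU. Whether PBS mice sampled on day 6 were sorted in this way is not spelled out, nor is it for Old.

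**Figure D5:**
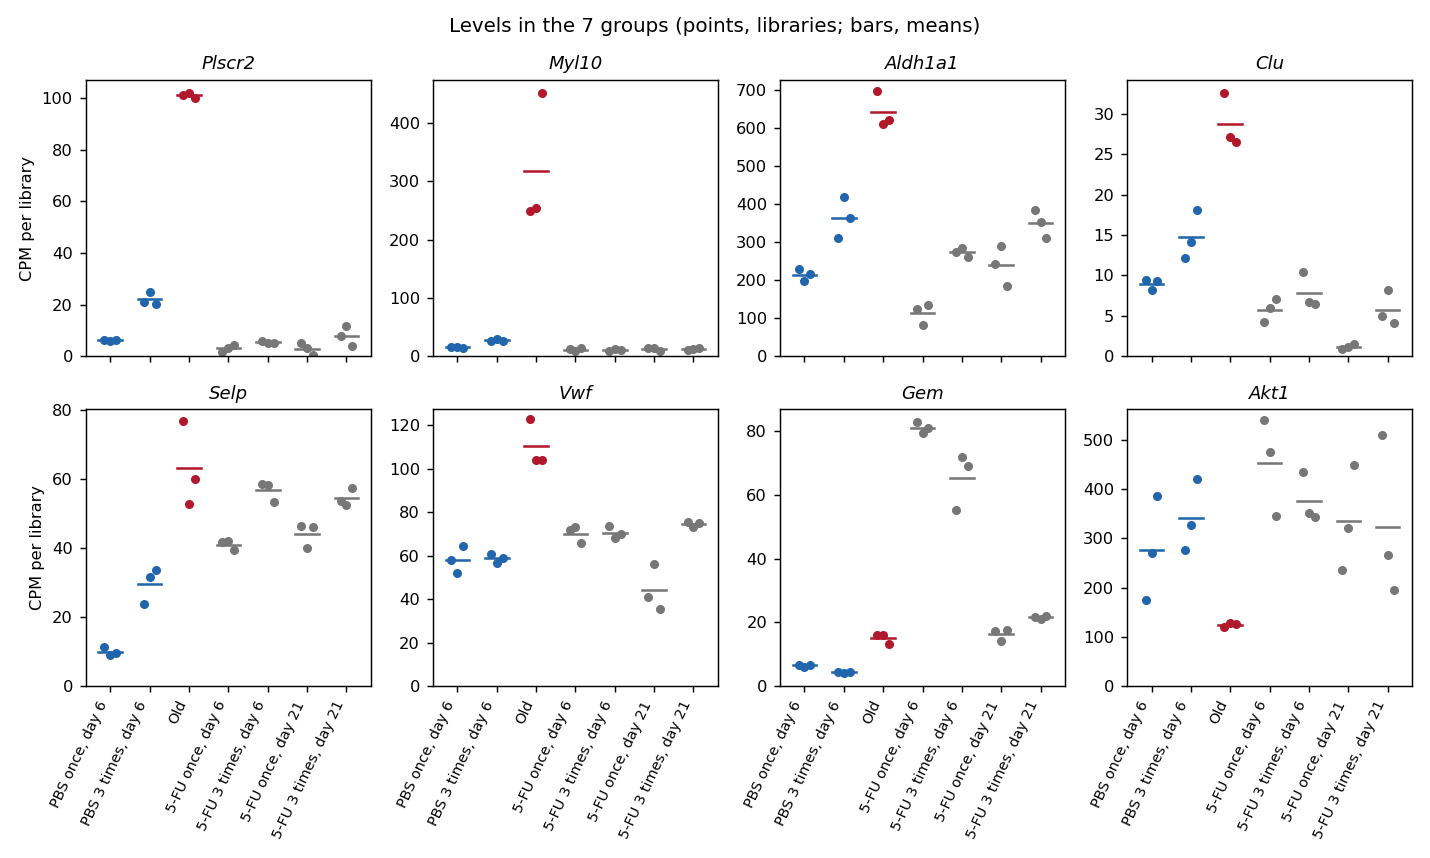
CPM of 8 genes in the 3 libraries (points) and as means (bars) of the 7 groups, on linear axes from 0. Plscr2, Myl10, Aldh1a1, Clu and Vwf are highest in Old, Selp and Gem are also high after 5-FU, and Akt1 is lowest in Old.

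PBS 3 times was itself compared with PBS once, in a comparison added after the data were seen. The mice of PBS once were of the same age at the first administration and were sampled 42 days earlier. Of 12355 autosomal genes tested 1 was higher after PBS 3 times (0.00809%), Plscr2, and 1 was lower (0.00809%), Glcci1. Plscr2 had 6.23, 5.97 and 6.29 CPM after PBS once and 21, 24.8 and 20.3 after PBS 3 times (log2 fold change 1.84 ± 0.116, SE, edgeR adjusted p = 0.0112), beside its 100 to 102 CPM in Old. Of the 43 ageing genes tested, 18 were higher at an unadjusted p under 0.05 (6.81% of all genes tested were) and 0 were lower (5.84% were). Selp had 11.2, 8.92 and 9.63 CPM after PBS once and 23.8, 31.5 and 33.7 after PBS 3 times (1.58 ± 0.159, SE, edgeR adjusted p = 0.0741), and Aldh1a1 230, 197 and 216 against 310, 418 and 363 (0.76 ± 0.118, SE, edgeR adjusted p = 0.115). The difference of Vwf between these 2 groups was near 0 (0.02 ± 0.0926, SE, edgeR adjusted p = 0.962). The libraries of PBS 3 times serve in both comparisons, the columns of PBS once carry a suffix that those of Old and PBS 3 times lack, and age, number of administrations and preparation cannot be told apart here. With PBS once as the control of Old, the ageing list had 29 calls and a median log2 fold change of 1.47.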

How the data were processed

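HSCs of 7 groups of 3 libraries each were sequenced as single-end reads of 75 bases after SMART-Seq v4 amplification and Nextera XT preparation. The authors aligned the reads to mm10 with TopHat2 2.0.13 and used Cuffdiff of Cufflinks 2.2.1, and deposited whole-number read counts per gene symbol without normalization; the program that counted them is not given in the sources used here, nor is how reads with several alignments were counted. Groups came from the sample labels. Genes of the 6 libraries compared were kept by filterByExpr (12847 genes, 12397 of them autosomal), scaled by TMM and compared in edgeR 4.0.16 (R 4.3.3) by its quasi-likelihood F test, with Benjamini-Hochberg adjustment over all genes kept and a threshold of 0.05. Fold changes of genes with 0 counts in a group were bounded with a floor of 3 counts per library, which is 0.0861 to 0.128 CPM and, like the count intervals, covers counting error only, since no molecular identifiers were named. For single genes, an exact permutation test over the 20 assignments of 3 against 3 libraries cannot give a p-value under 0.1, and gave 0.1 for each of the 119 genes called. Positions, lengths and GC content came from GENCODE vM21 (20499 symbols) and RefSeq (501 symbols) on GRCm38.

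The members and gene lists were chosen with earlier results of these data known. Genes were named by a rule: the 10 largest rises and falls and the 10 smallest p-values among called genes with at least 100 counts on average, no overlap between the groups and no predicted name, the called or most abundant members of each list, and a fixed set of HSC genes. Wdfy1, Phf11d, Il15, Pgr, Esr1, the Gbp genes other than Gbp4 and Gbp6, Akt2, Dvl2, Dvl3, Glcci1, the list members given without a call and the motifs were chosen after their values were seen. In the 6 pairs of libraries of 1 group, the variance between them was 23.5 to 29.4 times that of read sampling, so none is a copy of another. The alternatives were other size factors, DESeq2 1.42.0, other filters, the replicate number as a block, other control libraries, removal of sex-linked genes, of GC content and length, and of 1 library at a time. A few genes that the rule names are not reported here. The steps were tested on simulated data.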

Additional observations from a re-analysis of the deposited data

How the results depend on the processing

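Counts of calls depended on the processing. None of the 119 called genes changed direction under the 17 alternatives. Because the groups did not overlap in any of them, fits of the same libraries could hardly have turned a direction. The total of 119 calls, with 69 higher and 50 lower in Old and 15 in the ageing list, became 536 (313, 223 and 32) with DESeq2, 231 (181 higher, 29 in the ageing list) with PBS once as the control, and 250 (152 and 98) with all 6 PBS libraries as the control. With all 21 libraries in a single fit 89 genes were lower. The replicate numbers did not pair the libraries: deviations of libraries with the same number had correlations of -0.0458 to -0.0095, and 0 of them correlated best with their own number. With that number as a block 26 genes passed (17 higher, 9 lower, 3 in the ageing list), 24 of them among the 119. Leaving out 1 library at a time gave 16 to 70 calls (12 to 43 higher, 4 to 27 lower, 2 to 10 in the ageing list) and a median log2 fold change of the ageing list of 0.85 to 1.01. That median was 0.95 in the main test, 1.47 against PBS once, 1.14 against all PBS libraries and 0.85 with at least 10 counts in every library. Other size factors, all genes with at least 1 count, at least 10 counts in every library, removal of sex-linked genes and removal of GC content and length left 117 to 124 calls. DESeq2 called all 119 genes, and the fit without sex-linked genes 118 of them. With PBS once as the control 78.4% of the calls were higher in Old, and with GC content and length removed 47.6%, as were 47.3% with all 21 libraries in a single fit, where the main test had 58%.

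Some values near 0 that did not pass changed sign. Against PBS once, Kit was at -0.07, Mki67 at -0.18, Cd48 at -0.14, Prmt1 at 0.02 and Tc2n at 1.04. Against all PBS libraries Kit was at -0.03, Mki67 at -0.02 and Tc2n at 0.39. With GC content and length removed, Kit was at -0.07, Mki67 at -0.06 and Tc2n at 0.11. Akt2 was at 0.00 with all libraries in a single fit and at 0.01 with at least 10 counts in every library. Without 1 library at a time, values ran from -0.05 to 0.05 for Kit, -0.04 to 0.05 for Ly6a, -0.02 to 0.30 for Mki67, -0.59 to 0.19 for Tc2n, -0.11 to 0.05 for Gbp5 and -0.05 to 0.03 for Akt2. The causes of these changes were not tested, and the removal of GC content and length was chosen after seeing the data.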

Other observations

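Several called genes are neighbours. Of the 119, 22 lie within 1000000 bases of another called gene, in 10 runs. How many would do so among 119 genes picked at random was not counted. The Gbp genes, with 3 rises among 5 genes tested in their span, make 1 of them. Another is Rasa4, Cux1 and Myl10 on chromosome 5 from 136083916 to 136701094, where the 6 other genes tested had a median log2 fold change of -0.05. Cux1, a homeodomain transcription factor of high level, rose there by 0.48 ± 0.0761 (log2 fold change ± SE, edgeR adjusted p = 0.033), and Rasa4, a Ras GTPase-activating protein, by 0.65 (edgeR adjusted p = 0.0499). Cyp26b1 and Exoc6b on chromosome 6 rose as a pair, with no other gene tested in the span that they define. Nupr1 and Sult1a1 on chromosome 7, Trib2 and Greb1 on chromosome 12, and Batf2 and Pygm on chromosome 19 rose as pairs. Entpd4 and Entpd4b (both at -0.83) and Gm13306 and Ccl27b (-0.70 and -0.69) are near-identical copies that fell with nearly the same values, and their reads may be shared. Chromosome 5 held 10 of the 69 rises (1.27% of its 786 genes tested) and chromosome 14 held 6 (1.36% of 440), where 0.557% of all genes tested rose. These were not tested, and the runs were looked for after the values were seen.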
